A study of Mus musculus with 12 samples.

Results

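The genes described here are 8 members of the SREBP pathway of lipid synthesis, out of 21631 protein-coding genes annotated on chromosomes 1 to 19 and X. They were taken by name: Srebf1 and Srebf2, which encode the SREBP transcription factors, Insig1, which encodes an inhibitor of SREBP processing, and the enzyme genes Hmgcs1, Sqle, Fasn, Scd1 and Scd2. For each gene, Cut & Run peaks of H3K4me3 and H3K4me1 were collected over the gene plus 1 kb on either side, and those of H3K4me1 also within 50 kb of it. In Cut & Run an antibody guides a nuclease to its target in chromatin, and the DNA fragments cut free are sequenced. The libraries came from mouse embryonic fibroblasts (MEF) that were either knocked out for Fbxw7 (KO, labelled fbxw7 KO) or wild type (WT), with antibodies against H3K4me1, H3K4me3 and MLL4 and 2 libraries per antibody and genotype, 12 in all. The labels state no age, passage or deleted part of Fbxw7, nor if replicate libraries stem from different embryos or cultures, so p-values here measure only the spread between these libraries, which may be technical.

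SREBP proteins are made as precursors held in the endoplasmic reticulum membrane together with SCAP. When sterols are plentiful, INSIG proteins keep the complex there, and when sterols are scarce SCAP carries SREBP to the Golgi, where proteases release the part that enters the nucleus. SREBP-2 mainly drives genes of cholesterol synthesis and uptake, SREBP-1 mainly those of fatty acid synthesis, and nuclear SREBP is a substrate of the SCF ubiquitin ligase that Fbxw7 directs. H3K4me3 is found at active promoters, while H3K4me1 is common at enhancers and beside promoters. The comparison asks whether either mark at these genes differs with loss of Fbxw7.

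Depth ran from 4435103 to 13627038 filtered fragments per library, and the WT H3K4me3 replicate 1 library, at 11319701, stood apart from the other 3 of that mark (5519477 to 6185767); its list was also made with up to 2 fragments per position, against 1 in those 3. The H3K4me3 lists held 10397 to 11281 peaks in KO and 16078 to 17460 in WT, and the H3K4me1 lists 53120 to 59908 in KO and 56616 to 62065 in WT. Over Fbxw7 itself there were 1 and 1 H3K4me3 peaks in KO and 2 and 3 in WT, which does not check the labels, since the deleted part is not stated. All 15 fibroblast markers listed had H3K4me3 in at least 1 library, and 9, among them Col6a1, Fbn1 and Thy1, had it in all 4. Col1a1, Col1a2, Col3a1, Lum, Pdgfra and Twist1 did not, and 2 of these had H3K4me3 in both WT libraries and neither KO library. No marker of the hepatocyte, epithelial, endothelial or haematopoietic lists had it in all 4 libraries, and of 6 adipocyte markers Pparg and Plin1 did, while Adipoq, Fabp4, Lep and Cidec had none in any. The summed H3K4me3 bases were 9816 and 8585 in KO and 39341 and 30443 in WT over the fibroblast list, and 1251 and 555 in KO and 1704 and 1277 in WT over the adipocyte list. The other 4 lists each summed to 0 to 247 bases in KO libraries and 0 to 1131 in WT libraries. H3K4me1 set the lists less apart. It was present in all 4 libraries at 10 of the 15 fibroblast markers, but also at 3 of the 4 endothelial markers and at Ptprc, Alb, Fabp4 and Pparg. Twist1 and Vim had none in any library. The part of these lists in the differences below was not tested.

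Promoter sequences are shown first because some of the results below place the H3K4me3 peaks relative to annotated starts. RefSeq gives 300 bases around annotated starts (GRCm38.p6, the coordinates of mm10; 250 before the start and 50 from it on) for 7 starts of 5 of the genes, 3 of them in Srebf1. Capitals mark 4 short motifs searched on both strands: TCACNCCAC, a form of the sterol response element that SREBP binds, CCAAT, bound by NF-Y, CACGTG, an E-box, and GGGCGG, the GC box bound by Sp1. The 4 promoters printed are those of the middle Srebf1 start, which lay beside a peak in every library, and of Srebf2, Insig1 and Hmgcs1.
Srebf1, chr11:60220578-60220877, minus strand: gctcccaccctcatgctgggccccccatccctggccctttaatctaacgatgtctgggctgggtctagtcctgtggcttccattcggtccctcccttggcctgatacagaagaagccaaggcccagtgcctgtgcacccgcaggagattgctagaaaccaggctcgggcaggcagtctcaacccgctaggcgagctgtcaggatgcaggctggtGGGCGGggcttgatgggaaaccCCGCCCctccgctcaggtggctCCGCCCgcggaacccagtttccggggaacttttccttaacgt
Srebf2, chr15:82147019-82147318, plus strand: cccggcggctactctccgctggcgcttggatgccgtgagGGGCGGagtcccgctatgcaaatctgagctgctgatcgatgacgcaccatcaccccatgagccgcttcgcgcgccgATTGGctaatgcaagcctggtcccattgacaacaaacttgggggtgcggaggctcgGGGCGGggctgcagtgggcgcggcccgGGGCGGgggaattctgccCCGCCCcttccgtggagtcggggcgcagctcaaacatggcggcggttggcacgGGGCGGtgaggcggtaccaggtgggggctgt
Insig1, chr5:28071162-28071461, plus strand: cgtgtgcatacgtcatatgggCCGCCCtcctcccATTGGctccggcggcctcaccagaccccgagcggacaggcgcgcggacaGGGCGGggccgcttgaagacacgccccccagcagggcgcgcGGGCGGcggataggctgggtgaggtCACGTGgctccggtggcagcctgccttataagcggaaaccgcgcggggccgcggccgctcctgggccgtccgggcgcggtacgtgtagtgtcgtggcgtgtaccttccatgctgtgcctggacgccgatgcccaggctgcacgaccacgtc
Hmgcs1, chr13:119690101-119690400, plus strand: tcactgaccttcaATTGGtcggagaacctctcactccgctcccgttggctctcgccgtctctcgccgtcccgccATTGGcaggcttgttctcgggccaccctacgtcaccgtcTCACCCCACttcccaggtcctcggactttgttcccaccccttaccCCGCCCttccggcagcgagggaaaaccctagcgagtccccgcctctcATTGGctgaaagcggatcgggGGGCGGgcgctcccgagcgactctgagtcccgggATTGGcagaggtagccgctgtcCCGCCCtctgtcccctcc

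CCAAT or its complement was found in 6 of the 7 windows, at all 5 genes, against 37.4% of 32851 promoters searched. GGGCGG was found in 5 windows, of 4 genes (all but Fasn), against 35.7% of promoters. TCACNCCAC occurred once, in Hmgcs1 at 137 bases before the start (1.24% of promoters), and CACGTG once, in Insig1 at 101 bases before it (7.15%). Hmgcs1 also held 4 CCAAT matches, and in Fasn a pair of CCAAT matches on opposite strands overlapped. These are matches of letters, not shown to be bound sites.

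Each of the 8 genes had H3K4me3 in every library, against 68.1% of genes with such a peak, and at each of them it covered fewer bases in both KO libraries than in both WT libraries. Over the 8 genes the peaks covered 293 to 1535 bases per gene and library in KO and 1528 to 2886 in WT, and the median log2 ratio, KO over WT with 100 bases added to each mean, was -1.52. This was also the rule elsewhere: 93.5% of the 13276 genes with an H3K4me3 peak in at least 1 library were lower in the same way, and 98.0% of the 9041 with a peak in all 4, with median log2 ratios of -1.32 and -1.02. The count of 8 of 8 lies near that background. None of the 8 was higher, against 0.0301% of those 13276 genes. Without the deeper WT replicate 1 all 8 stayed lower (median log2 -1.30), but no share over all genes is given for that setting. With every list held to its best 10397 peaks all 8 were lower against a background of 83.9%. No gene of the 8 was WT-only (peaks in both WT and neither KO library), against 12.6% of genes with a peak, and none was KO-only (the reverse), against 0.0%. With 2 against 2 libraries the exact two-sided permutation p of each gene was 0.333, the smallest this design allows, so none of the differences below is called a rise or a fall.

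**Figure D1:**
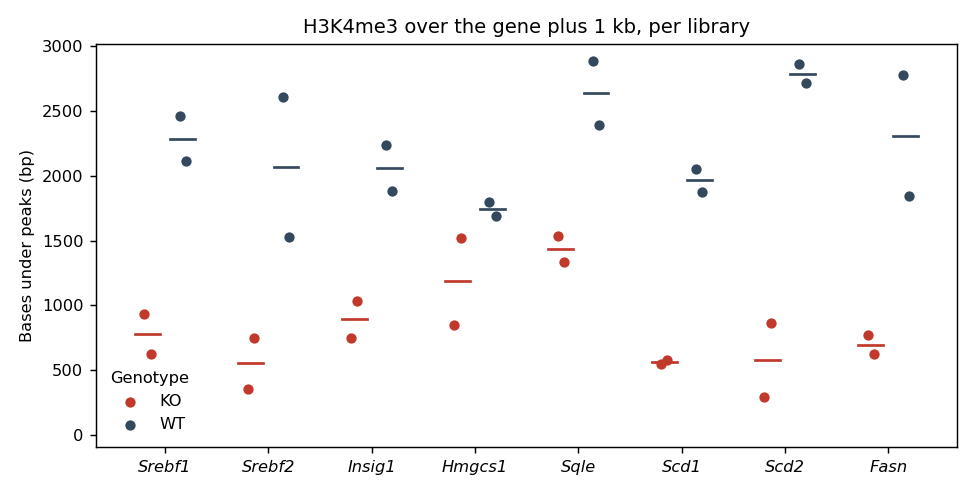
Bases under H3K4me3 peaks over each gene plus 1 kb (vertical axis, bp), with 1 point per library and a bar at the mean of 2 libraries, KO in red and WT in dark blue. At each gene both KO points lie below both WT points, by the narrowest margin at Hmgcs1, where the higher KO library had 1521 bp and the lower WT library 1690 bp.

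Among the transcription factor genes, Srebf2 (chromosome 15, 82147269 to 82205379), encoding SREBP-2, had 357 and 752 bases under H3K4me3 peaks in KO, against 2606 and 1528 in WT. The groups did not overlap, with means of 554.5 ± 279 in KO and 2067 ± 762 bases in WT (SD, n = 2 each; log2 -1.73; exact permutation p = 0.333). Its best KO peaks stood high in their own lists by the authors' q value, at percentiles 90.1 and 78.6, the highest of the 8 genes in both KO libraries, and at 64.7 and 88.0 in the WT lists. In KO replicate 1 this peak had a -log10 q of 10.9, and no other KO peak over the 8 genes reached 10. Relative to the annotated start the KO peaks began at 746 and 643 bases and the WT peaks at -109 and 225 bases, negative values lying before the start. WT replicate 1 had a further peak about 11 kb inside the gene, 82158187 to 82158904, which the other 3 libraries lacked.

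Srebf1 (chromosome 11, 60199084 to 60224186) encodes SREBP-1 and has 3 annotated starts in the promoter table, all on the minus strand. In all 4 libraries H3K4me3 lay just inside the middle start at 60220627. It spanned 933 and 868 bases from first to last edge in KO, and 1130 and 1127 in WT, where both peaks ended exactly at the start base. At the start furthest inside the gene, 60210471, both WT libraries had peaks (60209197 to 60210523 in replicate 1, and 60209062 to 60209509 with 60209903 to 60210444 in replicate 2), and neither KO library had any. The outermost of the 3 starts, 60222581, had no H3K4me3 peak within its 300 bases in any library. Over the whole gene plus 1 kb the peaks covered 933 and 627 bases in KO, against 2457 and 2117 in WT, so the groups were well apart (log2 -1.44, exact permutation p = 0.333). With lists of equal length, the second site was left out in WT too, and the values were 933 and 627 in KO, against 1130 and 1127 in WT.

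Insig1 (chromosome 5, 28071412 to 28078662), whose product holds SCAP and SREBP in the endoplasmic reticulum, had 749 and 1038 bases in KO and 2239 and 1883 in WT (log2 -1.12, exact permutation p = 0.333). Each library had 2 peaks, but not in the same places. Both WT libraries had 1 peak before the start (summits at -561 and -602 bases) and 1 just after it. Both KO libraries had both of their peaks after the start, beginning 654 and 243 bases downstream. These KO peaks were weak, at percentiles of 24.2 and 6.73 for the better of them in each list. With lists of equal length KO replicate 2 had no Insig1 peak.

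By covered bases the cholesterol enzyme genes had the ratios nearest to 0. Hmgcs1 (chromosome 13, 119690351 to 119708260), encoding the cytosolic HMG-CoA synthase, had 1 peak in every library, covering 853 and 1521 bases in KO and 1795 and 1690 in WT. The ratio of its means, log2 -0.52, was the nearest to 0 of the 8, though with lists of equal length Srebf1 was nearer (-0.48), and was higher than that of 91.6% of genes with a peak (exact permutation p = 0.333). Its single peak began 239 and 86 bases after the start in KO and 30 and 86 after it in WT, so the near edge did not part the genotypes, while the far edge lay at 1091 and 1606 bases in KO and at 1824 and 1775 in WT. Summit pileup, the number of fragments over the summit, was 3.99 and 3.54 per 1000000 filtered fragments in KO, against 13.1 and 12.1 in WT. The summit heights thus lay further apart than the covered bases. By summit pileup Hmgcs1 was not the gene nearest to 0. At Scd1 the pileup was 2.72 and 3.20 in KO and 8.13 and 6.95 in WT, a ratio nearer to 0 than at Hmgcs1. The order of the genes by covered bases therefore does not hold for summit height.

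Sqle (chromosome 15, 59315092 to 59331193), encoding squalene epoxidase, had 1535 and 1337 bases in KO and 2886 and 2390 in WT (log2 -0.83, exact permutation p = 0.333). The means were 1436 ± 140 bases in KO and 2638 ± 351 in WT (SD, n = 2 each), and the groups did not overlap. Peaks lay at the lower-coordinate end of the gene. The first edge lay 189 and 505 bases inside that end in KO and at -568 and -589 bases, outside it, in WT.

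By covered bases, though not by summit pileup, the fatty acid genes lay further from 0 than the cholesterol enzyme genes Hmgcs1 and Sqle. Fasn (chromosome 11, 120805958 to 120825166), encoding fatty acid synthase, had 770 and 622 bases in KO and 2773 and 1841 in WT (log2 -1.60, exact permutation p = 0.333). Relative to the annotated start at 120824547, its peaks began at 1059 and 512 bases in KO and at -712 and -703 bases in WT. Near the gene ends, in a window of 1 kb either side of each, the KO libraries therefore had no peak and Fasn counted as WT-only.

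Scd1 and Scd2 encode stearoyl-CoA desaturases, which make monounsaturated fatty acids, and lie near each other on chromosome 19. Scd1 (44394450 to 44407709) had 552 and 581 bases in KO and 2050 and 1878 in WT (log2 -1.63, exact permutation p = 0.333). Replicates were close at this gene, at 566.5 ± 20.5 bases in KO and 1964 ± 122 in WT (SD, n = 2 each). Scd2 (44293676 to 44306864) had 293 and 868 bases in KO and 2858 and 2714 in WT, the lowest ratio of the 8 with all libraries (log2 -2.08, exact permutation p = 0.333), and still higher than that of 24.6% of genes with a peak. The value leaned on single KO libraries: it was -2.88 without KO replicate 2 and -1.58 without KO replicate 1, where Fasn (-1.74), Srebf1 (-1.72) and Scd1 (-1.60) lay lower. The KO libraries lay wide apart there, at 580.5 ± 407 bases, against 2786 ± 102 in WT (SD, n = 2 each), and both stayed far under WT.

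**Figure D2:**
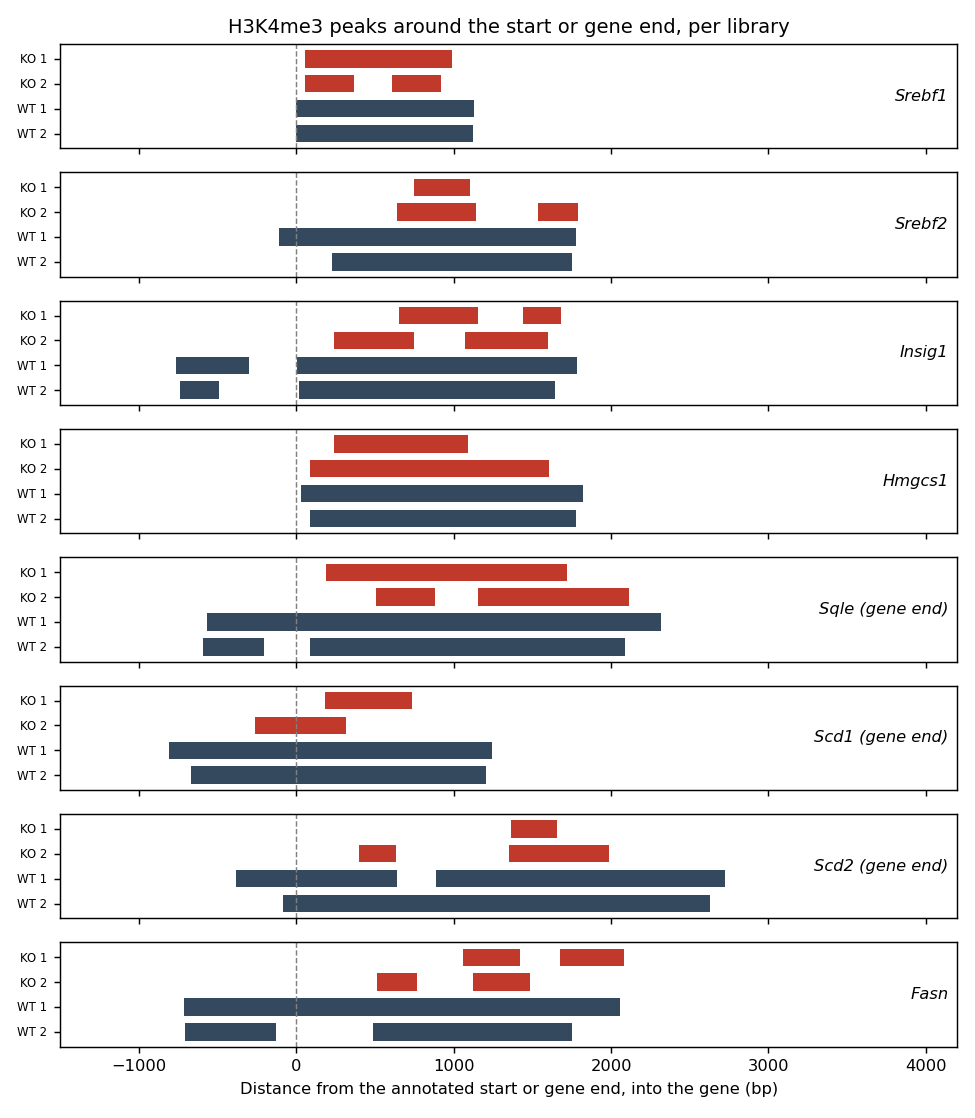
H3K4me3 peaks of each library (rows, KO above WT) around the annotated start, or around the gene end that holds the peaks for Sqle, Scd1 and Scd2; the horizontal axis is the distance into the gene in bp. KO peaks cover less at each gene, and at each gene but Hmgcs1 they begin further into the gene in both KO libraries than in both WT libraries. This edge measure was chosen after its values were seen. At annotated starts the same holds for 87.8% of 7039 genes with such peaks, and for gene ends no such share is given. The inner Srebf1 and Srebf2 sites lie outside the axis.

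None of the 7 annotated starts lay under an H3K4me3 peak in either KO library, and 4 and 1 did in the WT libraries. Over all 32619 starts on the chromosomes used, 7.78% and 9.42% lay under a peak in KO and 33.0% and 26.9% in WT. No base of the 7 promoter windows was covered in KO, but no share over all promoter windows is given to set beside this. In WT, Fasn had 300 and 123 of its 300 bases covered, Srebf2 159 and 0, and Insig1 42 and 33. At the inner Srebf1 start 102 and 23 bases were covered in WT. At the middle Srebf1 start 50 bases were covered in both WT libraries, those from the start on, and at Hmgcs1 20 and 0. Where the first edge of the peaks could be set against an annotated start, it lay further downstream in both KO libraries at 4 of the 5 genes (not Hmgcs1), against 87.8% of 7039 genes with such peaks. The last edge lay nearer the start in both KO libraries at 2 of the 5, Srebf1 and Hmgcs1, against 84.5%. These edge measures were chosen after their values were seen.

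H3K4me1 over the genes was sparse and less uniform. It covered 0 to 2046 bases per gene and library in KO and 0 to 2300 in WT, and Srebf2, Scd2 and Fasn, 3 of the 8, had peaks in every library, against 51.8% of the 12781 genes with an H3K4me1 peak in at least 1. At 4 genes both KO libraries were below both WT libraries (Srebf2, Insig1, Sqle and Scd1), and at 1, Srebf1, both were above. The background shares are 26.0% lower and 12.4% higher. Insig1 and Scd1 were WT-only, against 4.69% of genes, and none was KO-only, against 2.75%. The median log2 ratio over the 8 was -0.39, against -0.21 over all genes with a peak. Counted on the gene alone without its flanks, no gene was lower and Srebf1 was higher, so none of the 4 lower calls held without the 1 kb flanks. With lists held to the best 53120 peaks, 2 genes were lower (Insig1 and Scd1, background 24.8%) and 2 higher (Srebf1 and Hmgcs1, background 14.0%). The higher count hung on single libraries, with 3 genes without KO replicate 2 and 2 without WT replicate 1 or 2.

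Srebf1 had 2 H3K4me1 peaks in each KO library and 0 and 1 in WT, covering 669 and 833 bases in KO and 0 and 366 in WT (751 ± 116 and 183 ± 259 bases, SD, n = 2 each; exact permutation p = 0.333). One site, 60208603 to 60209392, had a peak in both KO libraries and in WT replicate 2. It overlapped the region where WT libraries, but not KO, had H3K4me3 beside the inner start, though with H3K4me3 lists of equal length the WT libraries had none there either. The second KO peak of H3K4me1 lay at a different place in each library, at 60223044 to 60223344 in replicate 1 and at 60210866 to 60211274 in replicate 2. All were weak, with -log10 q values from 2.76 to 4.87, and at a -log10 q of at least 10 none remained in any library.

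Srebf2 had H3K4me1 at several sites, covering 2046 and 1231 bases in KO and 2300 and 2121 in WT, which is 34.0 and 20.5 bases per kb of window in KO and 38.3 and 35.3 in WT. Per kb of window Scd2 exceeded it in 3 of the 4 libraries, at 75.1 and 24.4 in KO and 69.9 in WT replicate 2. Most of its sites recurred. Regions merged over the 4 libraries had a peak in each of them at 82145634 to 82146970, which ends 299 bases before the start, at 82158341 to 82159167 and 82161495 to 82161956 inside the gene, and at 82205937 to 82206836 past its other end. In KO replicate 2 the peak of the first of these lay beyond the 1 kb flank and so was not counted. With lists of equal length the groups overlapped.

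Scd1 had no H3K4me1 peak over the gene plus 1 kb in either KO library, against 454 and 419 bases in WT. The WT peaks lay at 44407852 to 44408309, 143 bases past the gene end that carries the H3K4me3 peaks, with -log10 q of 4.90 and 4.45, and WT replicate 1 had 1 more at 44408600 to 44409043. Insig1 had none in KO, and in WT 74 and 38 bases of a peak at 28070039 to 28070485 reached into the window, with -log10 q of 5.83 and 4.57. This Insig1 site ended 927 bases before the annotated start, and when at least 50% of a peak had to lie in the window Insig1 was no longer WT-only, while Scd1 was.

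The other 4 genes had low and variable H3K4me1. Sqle had 0 and 282 bases in KO and 284 and 427 in WT, which parts the groups by 2 bases. Hmgcs1 had 464 and 215 bases in KO and 265 and 0 in WT, and Fasn 257 and 396 in KO and 306 and 599 in WT. Scd2 had 1140 and 370 in KO and 210 and 1062 in WT, a spread within each genotype wider than the difference of means. For Hmgcs1, Fasn and Scd2 the groups overlapped.

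**Figure D3:**
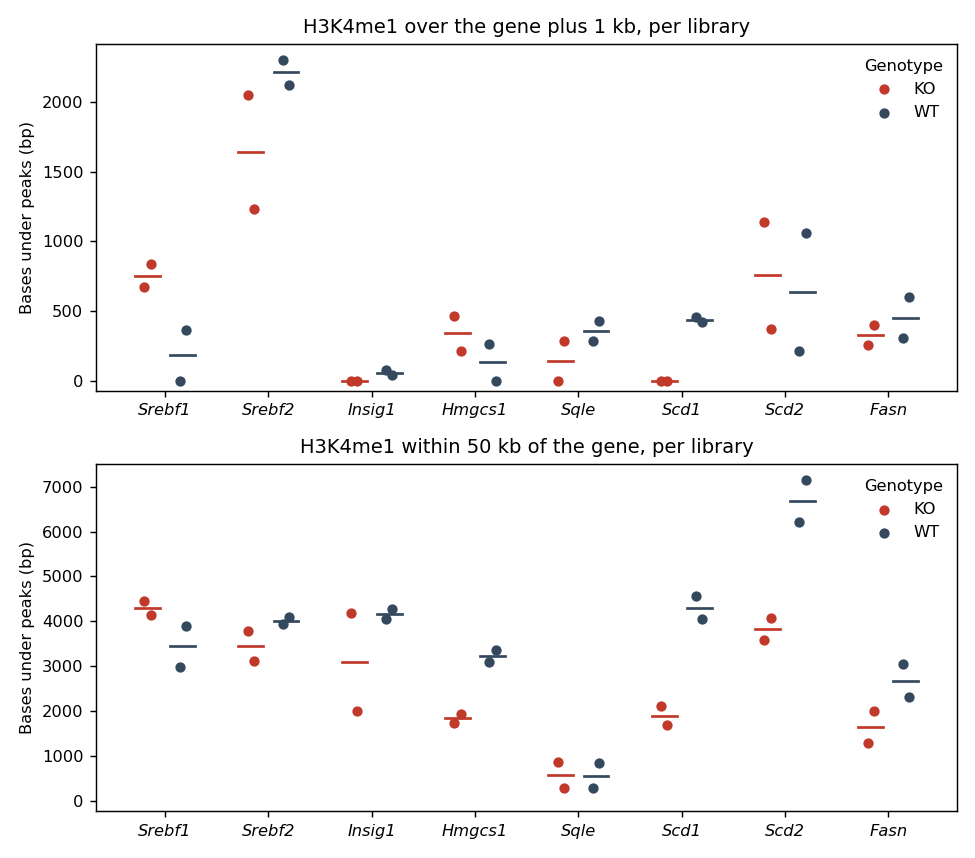
Bases under H3K4me1 peaks (vertical axes, bp) over each gene plus 1 kb (upper panel) and within 50 kb of it (lower panel), with 1 point per library and a bar at the mean of 2 libraries, KO in red and WT in dark blue. Scd1 is at 0 in both KO libraries in the upper panel, and in the lower panel the KO points lie below the WT points at Srebf2, Hmgcs1, Scd1, Scd2 and Fasn and above them at Srebf1.

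Within 50 kb, H3K4me1 covered fewer bases in both KO libraries at 5 genes (Srebf2, Hmgcs1, Scd1, Scd2 and Fasn), more at Srebf1, and overlapped at Insig1 and Sqle. Of the 18420 genes with a peak in that window 34.3% were lower in the same way and 12.1% higher. The median log2 ratio was -0.54 over the 8 and -0.23 over those genes. The windows of Scd1 and Scd2 overlap and share 2 merged regions, so they are not independent.

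The lowest ratio of the 8 was that of Scd1. It had 2116 and 1683 bases within 50 kb in KO and 4553 and 4046 in WT (1899.5 ± 306 and 4299.5 ± 359, SD, n = 2 each; log2 -1.14; exact permutation p = 0.333), a ratio lower than that of all but 11.2% of genes. Scd2 had 3586 and 4073 bases in KO and 6202 and 7156 in WT (log2 -0.79, exact permutation p = 0.333). Between the genes lay a WT-only region at 44356060 to 44356828, with -log10 q of 9.88 and 7.88, and beyond Scd1 another at 44437795 to 44438140, with 7.30 and 6.08. Regions with a peak in all 4 libraries lay at 44389068 to 44390444, about 4 kb below Scd1, and at 44331862 to 44333201, about 25 kb above Scd2 and next to Scd4. Chromosome 19 as a whole held 2.96% and 2.82% of H3K4me1 peaks in KO and 3.16% and 3.24% in WT, a ratio of 0.903, and its part in the Scd difference was not tested.

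Hmgcs1 had 1733 and 1941 bases within 50 kb in KO and 3103 and 3350 in WT (log2 -0.78, exact permutation p = 0.333), with little spread within each genotype. A WT-only region lay 32744 bases below the gene, at 119657146 to 119657607 (-log10 q 5.25 and 5.25), and a KO-only region 48207 bases above it, at 119756467 to 119757003 (3.10 and 4.77). Fasn had 1295 and 2007 bases in KO and 3043 and 2314 in WT (log2 -0.67, exact permutation p = 0.333). The best WT-only region near any of the 8 genes lay 32098 bases below Fasn, at 120772956 to 120773860, with -log10 q of 15.2 and 8.53. A region 4935 bases below Fasn, 120799764 to 120801023, had a peak in all 4 libraries.

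The transcription factor genes lay on opposite sides of 0. Srebf1 had 4441 and 4131 bases within 50 kb in KO and 2989 and 3892 in WT (log2 0.31, exact permutation p = 0.333). It had a KO-only region at 60184409 to 60184907 (-log10 q 4.59 and 5.75), which lies inside the neighbouring gene Rai1. WT replicate 2 had a peak close beside that region, at 60183652 to 60184178 (-log10 q 4.27), so the mark was not absent there in WT. With windows of 25 kb and 100 kb Srebf1 no longer stood higher in both KO libraries, with log2 ratios of 0.78 at 25 kb and -0.058 at 100 kb. With lists of equal length it stayed higher, at log2 0.65. The region at 60272891 to 60274445 had -log10 q of 13.0 and 12.0 in KO and 9.32 and 7.0 in WT, so that at a cutoff of 10 Srebf1 kept peaks in both KO libraries and in neither WT library. H3K4me1 peaks make up a larger share on its chromosome, 11, in KO (5.46% and 5.47%) than in WT (5.14% and 5.10%), and the part of that in the Srebf1 values was not tested. Srebf2 had 3786 and 3113 bases in KO and 3938 and 4086 in WT (log2 -0.21, exact permutation p = 0.333). With lists of equal length its groups overlapped (log2 -0.11), which left 4 of the 8 genes lower within 50 kb, and with peaks of -log10 q of at least 10 the sign turned (log2 0.035).

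Insig1 and Sqle showed no parting of the genotypes within 50 kb. Insig1 had 4177 and 2005 bases in KO and 4044 and 4283 in WT, with 4 of its 7 merged regions present in all 4 libraries. Sqle had 870 and 282 bases in KO and 284 and 839 in WT, and none of its 4 regions was present in every library.

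**Figure D4:**
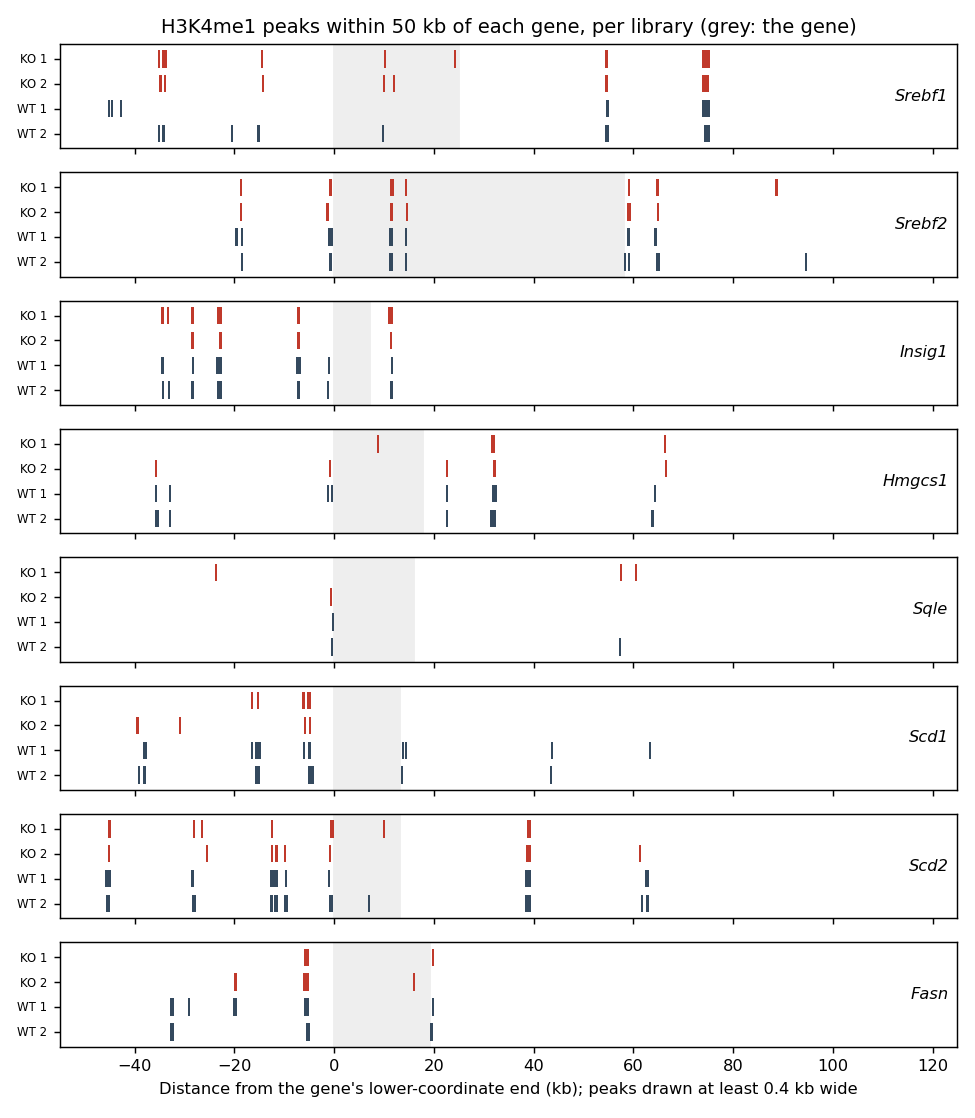
H3K4me1 peaks of each library (rows, KO above WT) within 50 kb of each gene, against the distance in kb from the gene's lower-coordinate end, with the gene in grey. Columns of 4 marks are regions shared by all libraries, most frequent at Srebf2 (6 of 10 regions) and absent at Sqle (0 of 4), while Scd1 has 3 regions held by both WT libraries and no KO library.

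Counting each region once, 70 merged H3K4me1 regions lay within 50 kb of the 8 genes. All 4 libraries had a peak in 19 of them (27.1%), against 28.7% of 94400 regions genome-wide. WT-only were 6 (8.57%), against 6.63%, and KO-only 2 (2.86%), against 5.37%. The other 43 had mixed patterns. Several lay in other genes, such as Rai1 and Tom1l2 beside Srebf1, Ccdc134 and Shisa8 beside Srebf2, Nim1k beside Hmgcs1, and Gps1 beside Fasn. Bases within 50 kb therefore need not belong to the lipid gene. No MLL4 peak lay within 50 kb of any of the 8 genes in any library, of 218 MLL4 peaks in the 4 lists together, so MLL4 could not be compared here.

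**Figure D5:**
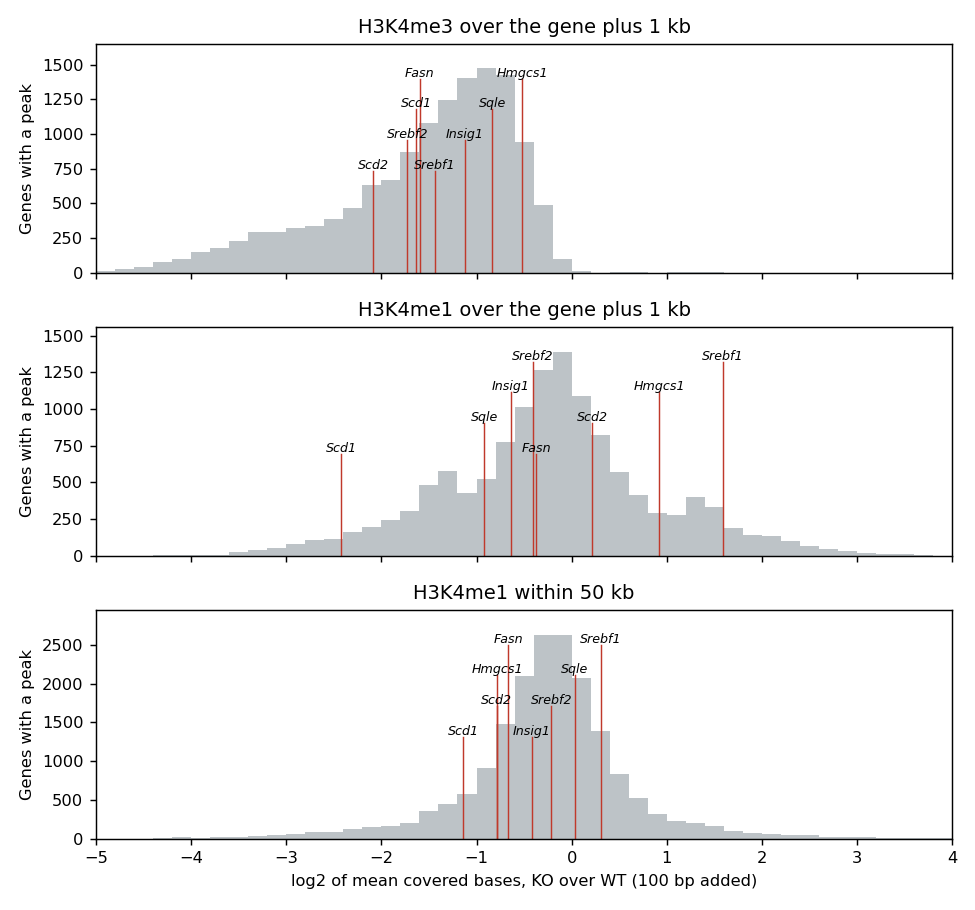
Number of protein-coding genes with a peak (grey bars, vertical axis) by the log2 ratio of mean covered bases, KO over WT with 100 bp added, in the 3 comparisons, with the 8 genes as red lines; genes beyond the axis are not drawn. For H3K4me3 the 8 genes run from -2.08 (Scd2) to -0.52 (Hmgcs1) within the main body of genes, and for H3K4me1 they lie on both sides of the median.

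The wider pathway was described from 5 lists with 50 genes besides these 8. H3K4me3 was present at 47 of them, and 44 were lower in both KO libraries, 0 higher and 3 not parted, again near the background of 93.5%. Of the 47, 3 were WT-only for H3K4me3, a smaller share than the 12.6% of all genes with a peak. Among these 3 were Abcg1, a cholesterol exporter gene (0 and 0 bases in KO, 1682 and 1031 in WT), and Dgat2, which encodes an enzyme of triglyceride synthesis (0 and 0 in KO, 1104 and 1108 in WT). Among genes with a peak in every library the lowest ratio was that of Fdft1, encoding squalene synthase, with 238 and 270 bases in KO and 2572 and 2197 in WT (log2 -2.81). Acsl3, an acyl-CoA synthetase gene (log2 -1.71), and Fads2, a fatty acid desaturase gene (log2 -1.68), followed. The machinery genes Scap, Insig2, Mbtps1 and Mbtps2 were lower with the rest, as all 7 genes of that list were, and 19 of 20 cholesterol synthesis genes were.

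For H3K4me1 over the gene plus 1 kb, 41 of the 50 had a peak, 10 were lower (24.4%), 4 higher (9.76%) and 27 not parted, against 26.0% lower and 12.4% higher among all genes with such a peak. Of the 41, 1 was WT-only, against 4.69% of all genes with a peak, and 1 was KO-only, against 2.75%. The KO-only gene was Acacb, encoding an acetyl-CoA carboxylase (800 and 1034 bases in KO, 0 and 0 in WT). Msmo1, of sterol synthesis, had 285 and 491 bases in KO and 1531 and 654 in WT (log2 -1.29), and Gpam (log2 -0.92) and Abca1 (log2 -0.73) followed. Within 50 kb, 49 had a peak, of which 19 were lower (38.8%) and 2 higher (4.08%), against 34.3% and 12.1% of all genes with a peak in that window, with a median log2 of -0.43. In the cholesterol synthesis list, Hmgcs1 and Sqle included, 12 of 19 were lower and 1 higher, beside that same background.

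By the distance of covered bases in the 8 histone libraries (Euclidean, on log2 of bases plus 100), the gene outside the 8 most like Hmgcs1 was Wdr92 (distance 0.527), and for Insig1 it was Mcrs1 (0.608), for Srebf1 Mepce (0.609), for Scd1 Igsf10 (0.634) and for Srebf2 Stat5b (0.664). Sqle was nearest Naa60 (0.875), Fasn Srsf4 (0.903) and Scd2 Maip1 (1.22).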

How the data were processed

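Cut & Run of H3K4me3, H3K4me1 and MLL4 was available for 2 KO and 2 WT libraries each. The submitters' processing notes list mm10 together with HOMER 4.10, deepTools, MACS2, Bowtie2, bedtools and SAMtools 1.5. Each library's peaks were called by the authors separately, per the file headers, with MACS 2.1.0.20150731, in paired-end mode, with a q cutoff of 0.01, a local background over 10000 bp and no control. Per the file headers, 1 fragment per position was kept in the MLL4 and H3K4me3 lists, except 2 in WT H3K4me3 replicate 1 and in the H3K4me1 lists. The deposited columns used were the pileup signal at the summit, the −log10 q value (with the −log10 p), the fold ratio over local background, and the peak length and other positions; they are the authors' values within a library. Where no peak is listed the mark may still lie below the caller's threshold, which weaker sites can pass in a deeper library.

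Peaks on chromosomes 1 to 19 and X were intersected (at least 1 bp) with RefSeq gene positions of GRCm38.p6, giving peak numbers and covered bases per gene and library (Python 3.11.15, pandas 2.3.3). Genes were called lower or higher when both KO libraries lay beyond both WT libraries. Single values were tested with the exact permutation test over 6 assignments. The code was tested on simulated data. Sequences and strand came from the RefSeq promoter table. No sample columns were left unmapped. Named pathway genes were those WT-only or KO-only for a mark, and the 3 with the largest ratios among parted genes with a peak in all 4 libraries; some genes that this rule takes are not reported here. The 8 genes, their lists and tests were chosen with earlier results of these data known. Alternatives were a −log10 q of at least 10, lists of equal length, other windows, peak number, pileup scaled to depth, pseudocounts, leaving out each library, and pairing by replicate number.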

Additional observations from a re-analysis of the deposited data

How the results depend on the processing

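For H3K4me3, the 8 genes stayed lower in KO under each alternative tried on covered bases or pileup except windows at the gene ends (6 of 8). The best peak's fold over local background was lower in both KO libraries at Srebf1, Insig1, Hmgcs1 and Fasn. That fold overlapped at Srebf2, Scd1 and Scd2, and was higher in KO at Sqle (4.75 and 4.85, against 4.66 and 4.64 in WT). By number of peaks 0 of 8 were lower (median log2 0.00). The median log2 moved to -4.39 at a −log10 q of at least 10, where 7 genes were WT-only. No share over all genes is given at that cutoff, so these 7 cannot be set against the 12.6% of the main setting. The median moved to -0.90 with a pseudocount of 1000 bases, and in gene-end windows 1 gene, Fasn, was WT-only. Leaving out each library in turn left 8 lower, with medians of -1.61 to -1.30. For H3K4me1 over the gene plus 1 kb, the cutoff of 10 left 0 lower, 0 higher, 0 WT-only and a median of 0.00. Lists of equal length gave 2 lower, 2 higher and 1 KO-only. The gene alone gave 0 lower, 0 WT-only and a median of 0.00, and gene-end windows 0 higher and -0.70. Peak number gave 2 lower (median -0.16), pileup 0 higher, a pseudocount of 1000 bases a median of -0.10, and a 50% overlap 1 WT-only. Leaving out 1 library gave 4 to 5 lower, 1 to 3 higher, 2 to 3 WT-only, 0 to 1 KO-only, and medians of -0.45 to -0.20: higher were 3 without KO replicate 2, and 2, with 1 KO-only, without WT replicate 1 or 2, and the median of -0.20 came without WT replicate 2. Within 50 kb, the cutoff of 10 gave 1 lower (median -1.65), 25 kb 0 higher (-0.36), 100 kb 0 higher, peak number 1 lower and 0 higher (-0.27), and pileup 3 lower and 2 higher (-0.11). Leaving out 1 library gave 5 to 7 lower, 1 to 2 higher (2 without KO replicate 2) and medians of -0.70 to -0.47. Of 208 values for single genes 2 reversed, those of Srebf2 within 50 kb at the cutoff of 10 (log2 0.035) and of Srebf1 at 100 kb (-0.058). The cause of these shifts was not tested. Shares over all genes are given only for the main settings and, over the gene plus 1 kb, for lists of equal length. Counts of the 8 genes under the other alternatives, pairing included, have no such background beside them.

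Replicate numbers shared between genotypes are not stated to pair the libraries, and deviations of same-numbered libraries were hardly correlated over genes (0.033 for H3K4me3, -0.0054 for H3K4me1). With the replicate block, counting genes where KO lay beyond WT in both same-numbered pairs, H3K4me3 was lower at 8 genes, H3K4me1 over the gene lower at 5 and higher at 2, and within 50 kb lower at 5 and higher at 1. A difference under the peak threshold was not detectable at these depths.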
